A study of Mus musculus with 12 samples.

Results

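The Hox cluster genes are the homeobox genes whose symbol is Hox followed by a cluster letter, a to d, and a number. All rows of the count table with such a symbol were taken, which gave 39 of the 48795 genes listed. The 11 genes of HoxA lie on mouse chromosome 6 (chr6:52155590-52260880), the 10 of HoxB on chromosome 11 (chr11:96194316-96368256), the 9 of HoxC on chromosome 15 (chr15:102921103-103036852) and the 9 of HoxD on chromosome 2 (chr2:74668310-74765142), in the GENCODE annotation of GRCm38. RNA was sequenced from piriform cortex, an olfactory area of the cortex, in 6 mice with 1 Q140 knock-in copy of Htt (heterozygotes, called Q140) and in 6 wild types (WT). All were on a C57BL/6 background and 12 months old, and each genotype had 3 females and 3 males. The knock-in puts an expanded CAG repeat, of the kind that causes Huntington's disease, into the animal's own Htt gene under the gene's own promoter, and the heterozygotes keep 1 normal copy. The tissue was dissected whole, so fewer cells of a type and less RNA per cell cannot be told apart in any value given here.

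Hox proteins are transcription factors that give cells of the embryo their position along the head-to-tail axis. The order of the genes along a cluster follows the order in which they are switched on along the body, low numbers towards the head and high numbers towards the tail, and in the nervous system they act in the hindbrain and the spinal cord. The forebrain, which includes the cortex, forms without them, and there the clusters are covered by Polycomb proteins, which keep chromatin silent, while trithorax proteins and retinoic acid act to open them. Hox proteins find their sites on DNA together with partners of the Pbx and Meis families.

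Between 19587208 and 35198602 reads were counted per library, on average 30.6 ± 6.41 M for Q140 and 28.9 ± 3.15 M for WT (SD, n = 6 each, exact permutation p = 0.569, two-sided). CPM below is the count per M reads of the library size scaled by TMM, a correction for library composition whose factors ran from 0.974 to 1.04, and pooled CPM is the same over the summed reads of the 6 animals of a genotype. A count of 0 in an animal still allows 0.0856 to 0.149 CPM, and a count of 0 over a whole genotype 0.0161 CPM in Q140 and 0.0175 CPM in WT (3 counts, counting error only). Htt, which checks the labels only through its total level since the reads of its copies were not separated, had 143 to 164 CPM in Q140 and 179 to 203 CPM in WT without overlap, and was lower by log2 -0.36 (SE 0.0436, edgeR adjusted p = 0.000163).

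Promoter windows from RefSeq on GRCm38.p6, 250 bases before to 50 after a start site, were at hand for 22 of the 39 genes. A CG, or CG pair, is a C followed by a G on the same strand, where DNA methylation acts, and Polycomb-bound promoters are often rich in it. The windows of a pair of genes are shown, with each CG in capitals: Hoxc4 (chr15:103034145-103034444, plus strand), since its gene had the smallest p of the 39, and Hoxd1 (chr2:74762730-74763029, plus strand), since the start of the noncoding transcript Haglr, whose level also rose, lies inside it.
Hoxc4: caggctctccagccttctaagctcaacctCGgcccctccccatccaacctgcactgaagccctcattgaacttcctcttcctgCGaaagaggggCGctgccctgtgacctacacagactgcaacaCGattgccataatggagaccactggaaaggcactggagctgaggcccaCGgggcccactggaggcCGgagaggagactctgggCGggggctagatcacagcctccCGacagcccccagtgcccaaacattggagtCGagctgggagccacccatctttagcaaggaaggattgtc
Hoxd1: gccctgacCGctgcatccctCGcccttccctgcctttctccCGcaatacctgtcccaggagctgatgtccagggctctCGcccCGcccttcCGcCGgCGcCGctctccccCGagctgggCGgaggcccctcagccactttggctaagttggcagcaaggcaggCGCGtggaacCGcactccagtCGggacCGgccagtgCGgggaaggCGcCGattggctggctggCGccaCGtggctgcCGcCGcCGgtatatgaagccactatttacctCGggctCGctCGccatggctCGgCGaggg
The Hoxc4 window belongs to a start site 15461 bases downstream of the start of the longest annotated Hoxc4 transcript. It held 9 CG pairs and 60.3% G or C, and the Hoxd1 window 29 CG pairs and 69.7% G or C, where all 32851 windows had medians of 7 CG pairs and 52.7% G or C. Haglr starts on the other strand at base 167 of the Hoxd1 window, 84 bases before the Hoxd1 gene. On both strands the windows were searched for TAATTA, a homeodomain core, TGATTNAT, a Pbx with Hox site, TGACAG, a Meis site, and AGGTCA, a site of retinoic acid receptors. The Hoxc4 window held AGGTCA on the minus strand at bases 105 to 110 and the Hoxd1 window held none of the 4. Matches are letters only: 16.3% of all windows held AGGTCA, 19.2% TGACAG, 5.29% TAATTA and 3.22% TGATTNAT.

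Hox transcripts were rare in both genotypes, but the pooled reads stood far apart. The 39 genes had 351 reads in the 6 Q140 animals and 48 in the 6 WT animals, or 1.89 and 0.281 pooled CPM, a ratio of 6.73 with a 95% counting interval of 4.96 to 9.30 (exact binomial). By animal the sum was 60, 74, 36, 66, 66 and 49 reads in Q140 1 to 6 and 5, 10, 8, 8, 13 and 4 reads in WT 1 to 6. Every Q140 animal was above every WT animal, the nearest pair being Q140 3 with 1.34 CPM and WT 5 with 0.446 CPM. Such intervals cover the counting of reads and not the spread between animals, and no p was computed for a sum over the genes.

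Most of the Q140 reads came from a single cluster. HoxC had 263 reads in Q140 and 14 in WT, or 1.41 and 0.0819 pooled CPM, a ratio of 17.3 (10.1 to 32.0). The 3 neighbours at its head-side end, Hoxc4, Hoxc5 and Hoxc6, held 260 of the Q140 reads and 10 of the WT reads. HoxB had 32 reads in Q140 and 6 in WT, a ratio of 4.91 (2.02 to 14.4), and HoxD 37 and 18, a ratio of 1.89 (1.05 to 3.53). HoxA had 19 reads in Q140 and 10 in WT, a ratio of 1.75 whose interval of 0.773 to 4.21 holds 1. HoxC thus made up 74.9% of the Hox reads of Q140 and 29.2% of those of WT, while HoxD made up 10.5% and 37.5%. The WT values rest on few reads: WT 2 gave 7 of the 14 HoxC reads and WT 5 gave 9 of the 18 HoxD reads, and without that animal WT had 0.0506 pooled CPM for HoxC and 0.0635 for HoxD.

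**Figure D1:**
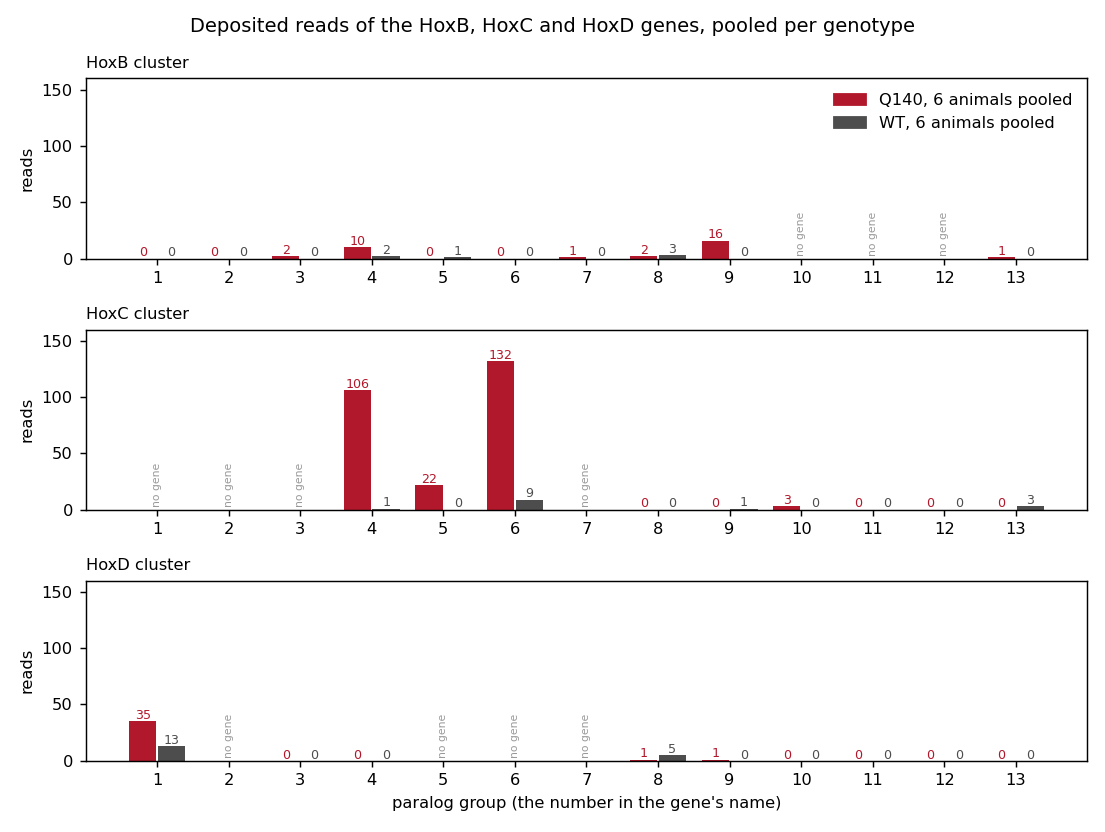
Deposited reads of the genes of HoxB, HoxC and HoxD, summed over 6 Q140 animals (red, left bar) and 6 WT animals (grey, right bar), by cluster (panels) and paralog group (horizontal axis); the number over a bar is its reads. Hoxc4, with 106 against 1, and Hoxc6, with 132 against 9, tower over the rest, and Hoxc8 to Hoxc13 have 3 reads or fewer in either genotype.

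**Figure D2:**
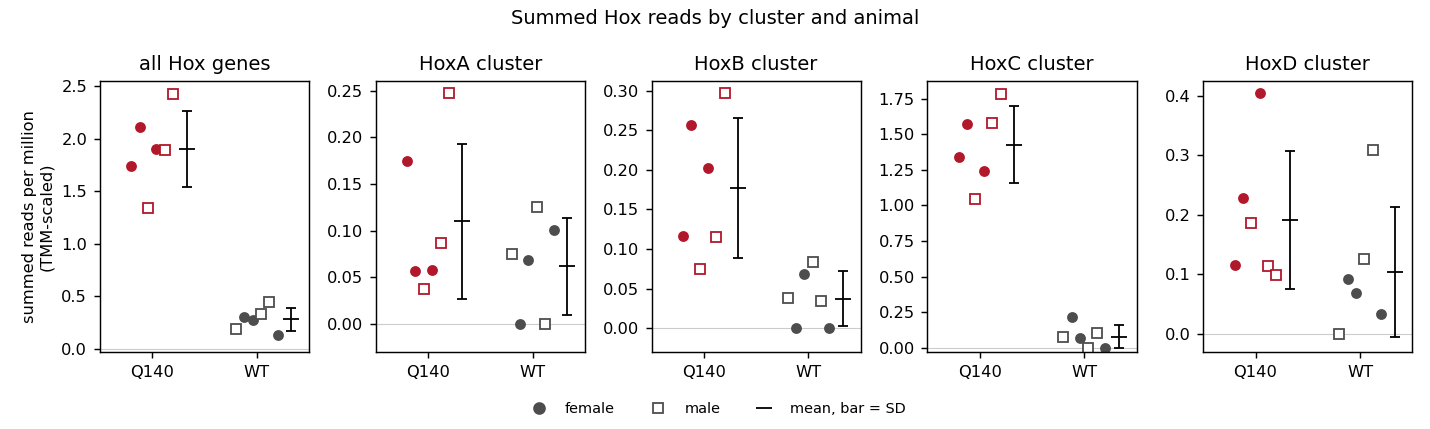
Summed CPM (TMM-scaled) of all 39 Hox genes and of each cluster, by animal (points; circles females, open squares males), with mean and SD (black), Q140 left and WT right; each panel has its own vertical scale. All Hox genes and HoxC separate the genotypes, and in HoxA, HoxB and HoxD the points overlap.

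Along the axis most reads lay in the middle of the numbering, through 3 genes of HoxC. Paralog groups 4 to 8, the genes used in the neck and trunk, had 292 reads in Q140 and 29 in WT, a ratio of 9.26 (6.31 to 14.1). Hoxc4, Hoxc5 and Hoxc6 gave 260 of the 292, and the other 12 genes of these groups had 32 reads in Q140 and 19 in WT. Groups 1 to 3, at the head-side end of the numbering, had 38 reads in Q140 and 15 in WT, a ratio of 2.33 (1.25 to 4.56). Of these, Hoxd1 alone gave 35 in Q140, 14 of them in Q140 4, and 13 in WT. The rise of Hoxd1 did not pass (edgeR adjusted p = 0.231). Groups 9 to 13, used towards the tail, had 21 reads in Q140 and 4 in WT, a ratio of 4.83 (1.63 to 19.4), and 16 of those 21 were of Hoxb9.

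Each gene with at least 10 reads over the 12 animals was tested with edgeR's quasi-likelihood test, Q140 against WT with sex as a covariate, and p-values were adjusted by Benjamini-Hochberg over all 23755 such genes. Of the 39 Hox genes, 7 were tested: 4 rose, 0 fell and 3 did not pass. Of all genes tested, 3.15% rose and 4.47% fell. Among the 6446 genes with 10 to 141 reads, the range up to the most read Hox gene, 0.434% rose and 0.512% fell. The 7 are no sample of the clusters, because all of them had 10 reads in Q140 alone and only Hoxd1 had 10 in WT alone. At an unadjusted p below 0.05, 4 were higher and 0 lower, and DESeq2 called 2 higher and 0 lower.

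Hoxc4, a gene of the neck and upper trunk that is also read in lymphoid cells, had 22, 19, 10, 21, 19 and 15 reads in Q140 1 to 6 and a single read in WT, in animal 5. The genotypes did not overlap, and all 6 Q140 animals were far above the 1 WT animal with a read. The same separation, all 6 Q140 animals above all 6 WT animals, held for 1.60% of the genes tested, and the opposite one for 2.00%. Hoxc4 averaged 0.575 ± 0.124 CPM in Q140 and 0.00571 ± 0.0140 CPM in WT (SD, n = 6 each). The ratio of scaled reads was 97.5 with a 95% counting interval of 17.1 to 3887. The fitted log2 fold change was 5.84 (SE 0.531, edgeR adjusted p = 2.09e-05), a value that depends on the prior count where WT has 1 read, and its p ranked 9 of 23755.

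Hoxc6, which helps to set trunk vertebrae and motor neurons of the limb level apart, had 23, 26, 14, 18, 31 and 20 reads in Q140 and 2, 5, 0, 0, 2 and 0 reads in WT. The lowest Q140 animal stood at 0.519 CPM and the highest WT animal at 0.153 CPM, so the genotypes did not overlap here either. Hoxc6 averaged 0.722 ± 0.193 CPM in Q140 and 0.0496 ± 0.0619 CPM in WT (SD, n = 6 each). It rose by 3.67 on the log2 scale (SE 0.489, edgeR adjusted p = 0.000391), and the ratio of pooled reads was 13.5 (6.89 to 30.2). Hoxc4 and Hoxc6 share no exon bases with another gene of the annotation, and no 50-base stretch of their transcripts occurs in another gene. They were also the only 2 of the 39 to pass edgeR's stricter default filter, under which 4.50% of 17725 genes rose and 6.69% fell.

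Hoxc5 is transcribed from the same strand as Hoxc4 and Hoxc6, and its annotated span takes in all of Hoxc6 and reaches into Hoxc10. It had 1, 8, 4, 4, 5 and 0 reads in Q140 and 0 in every WT animal. A Q140 animal, number 6, was thus at 0 as well, and the groups overlapped there. With 3 counts put in for the WT group, Hoxc5 was 6.75-fold higher in Q140. The lower limit of its exact binomial counting interval for the ratio was 5.04, and its edgeR adjusted p was 0.0345. The annotation lets 5.37% of its exon bases overlap Hoxc10, which had 3 reads in Q140 and 0 in WT, so a small part of its reads cannot be assigned with certainty. Its call was lost when any of Q140 2, 3, 4 or 5 or WT 1, 2 or 3 was left out, with adjusted p between 0.0507 and 0.0792.

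Hoxb9, which helps to pattern the chest region, had 1, 4, 2, 5, 1 and 3 reads in Q140 and 0 in every WT animal. Each Q140 animal had a read and no WT animal did, a pattern shared by 3 of the 23755 genes tested (0.0126%), the others being Barx1, a homeobox gene of the stomach and teeth, and Gm21839. The reverse, a read in each WT animal and 0 in Q140, was found for 0 genes. Without asking for a read in each animal, 0.0463% of the genes tested had 0 reads in WT and 0.00842% had 0 in Q140. With 3 counts put in for the WT group, Hoxb9 was 4.91-fold higher in Q140. The lower limit of its exact binomial counting interval for the ratio was 3.55, and its edgeR adjusted p was 0.0324. Its call was lost when any of Q140 2, 3, 4 or 6 or WT 1, 2 or 3 was left out, with adjusted p between 0.0552 and 0.0737, so the rise of Hoxb9 and of Hoxc5 is less firmly measured than that of Hoxc4 and Hoxc6.

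**Figure D3:**
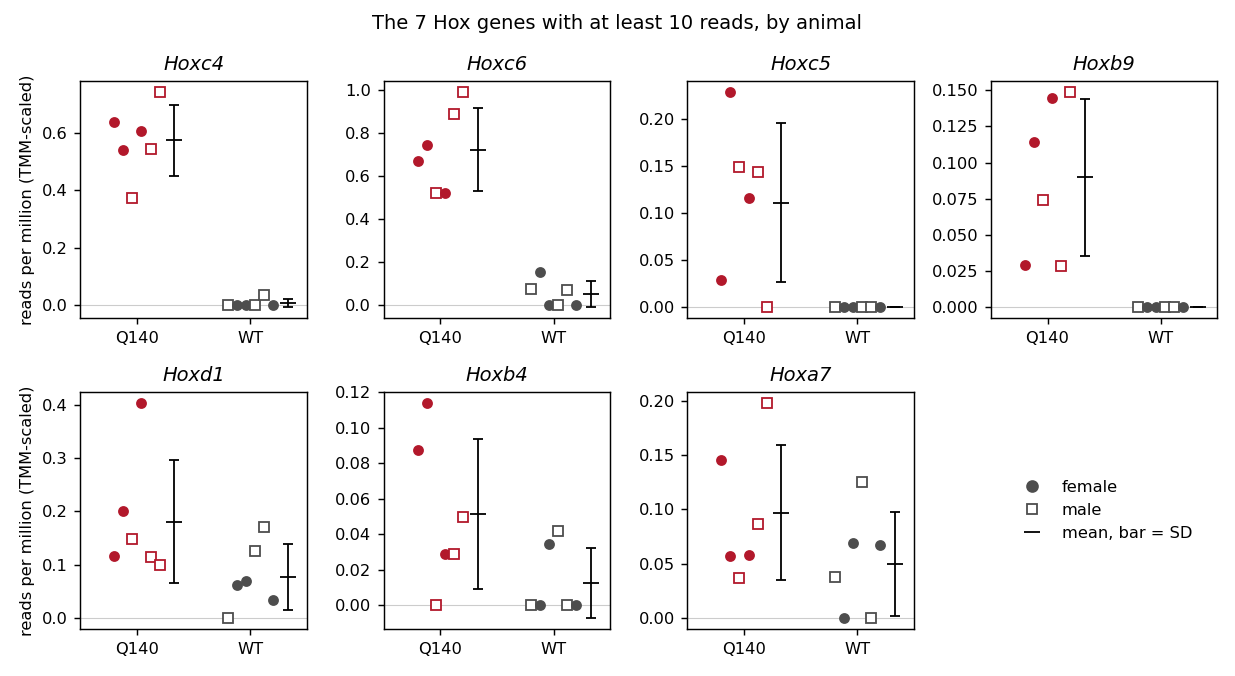
CPM (TMM-scaled) of the 7 Hox genes with at least 10 reads, by animal (circles females, open squares males), with mean and SD (black), Q140 left and WT right; each panel has its own vertical scale. Hoxc4, Hoxc6 and Hoxb9 separate the genotypes, Hoxc5 does except for 1 Q140 animal at 0, and Hoxd1, Hoxb4 and Hoxa7 overlap.

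Hoxd1, the most head-side gene of HoxD, was the Hox gene with the most reads in WT. It had 4, 7, 4, 14, 4 and 2 reads in Q140 and 0, 2, 2, 3, 5 and 1 reads in WT, with WT 4 and 5 inside the Q140 range. It averaged 0.181 ± 0.115 CPM in Q140 and 0.0768 ± 0.0622 CPM in WT (SD, n = 6 each), a log2 difference of 1.21 (SE 0.573, edgeR adjusted p = 0.231). The 14 reads of Q140 4 put that animal at 0.404 CPM, with the next at 0.200 CPM, and the gene did not pass in any of the 21 alternatives in which it was tested.

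Hoxb4, which in blood-forming cells promotes self-renewal, had 3, 4, 0, 1, 1 and 1 reads in Q140 and 0, 0, 1, 1, 0 and 0 reads in WT. Hoxa7, a trunk gene of HoxA, had 5, 2, 1, 2, 3 and 4 reads in Q140 and 1, 0, 2, 3, 0 and 2 reads in WT. Neither passed the test, with log2 differences of 1.80 (SE 0.892, edgeR adjusted p = 0.255) for Hoxb4 and 0.92 (SE 0.694, edgeR adjusted p = 0.489) for Hoxa7. The exons of Hoxa7 overlap those of the antisense gene Hoxaas3 over 20.4% of their length, and the strand setting of the counting is not given in the sources used here.

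The other 32 genes were not tested. In all, 13 of them had 1 to 6 reads, together 13 in Q140 and 15 in WT, or 0.0699 and 0.0877 pooled CPM. Their balance is not independent of the filter, since a gene with many more reads in Q140 would have reached 10 reads and left this set. Hoxa4, Hoxb7, Hoxb13 and Hoxd9 had 1 read each, Hoxb3 had 2 and Hoxc10 had 3, all of them in Q140. Hoxa3, Hoxb5 and Hoxc9 had 1 read each and Hoxc13 had 3, all of them in WT. Hoxb8 had 2 in Q140 and 3 in WT, and Hoxd8 had 1 in Q140 and 5 in WT, 4 of the 5 in WT 5. The remaining 19 had 0 reads in all 12 animals: Hoxa2, Hoxa5, Hoxa6, Hoxa9, Hoxa10, Hoxa11, Hoxa13, Hoxb1, Hoxb2, Hoxb6, Hoxc8, Hoxc11, Hoxc12, Hoxd3, Hoxd4, Hoxd10, Hoxd11, Hoxd12 and Hoxd13. They include the gap next to the HoxC reads, since Hoxc8, the neighbour of Hoxc6 on the tail side, had none. Hoxd3 and Hoxd4 share 62.3% and 52.3% of their exon bases with other genes on the same strand, so reads there may not have been assigned to them.

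Per length, by the deposited FPKM, Hoxc6 stood first in Q140 with 0.305 ± 0.0841 FPKM, followed by Hoxc4 with 0.227 ± 0.0487 and Hoxd1 with 0.0979 ± 0.0613 (SD, n = 6). Hoxc5 at 0.0364 ± 0.0274, Hoxb9 at 0.0354 ± 0.0213, Hoxa7 at 0.0343 ± 0.0222 and Hoxb4 at 0.0201 ± 0.0163 FPKM came after them and lay within each other's spread. In WT Hoxd1 stood first with 0.0408 ± 0.0335 FPKM, followed by Hoxc6 with 0.0203 ± 0.0253, Hoxa7 with 0.0171 ± 0.0165, Hoxb4 with 0.00488 ± 0.00762 and Hoxc4 with 0.00222 ± 0.00544, neighbours that do not differ beyond their spread. Hoxc5 and Hoxb9 are listed at 0 in all WT animals.

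Of the transcripts inside the clusters that are no Hox gene, 46 in the annotation, 3 had at least 10 reads. Haglr, a noncoding RNA that starts beside Hoxd1 and runs the other way, had 12, 32, 13, 23, 12 and 19 reads in Q140 and 5, 13, 2, 2, 6 and 0 reads in WT. WT 2 was above the 2 lowest Q140 animals, so the groups overlapped. Haglr averaged 0.616 ± 0.268 CPM in Q140 and 0.158 ± 0.141 CPM in WT (SD, n = 6 each) and rose by 1.87 on the log2 scale (SE 0.494, edgeR adjusted p = 0.0306). Its call was lost when any of Q140 2, 3, 4 or 6 or WT 1 or 3 was left out, with adjusted p between 0.0524 and 0.0828. Hotairm1, a noncoding RNA of the HoxA cluster, had 8 reads in Q140 and 2 in WT (log2 difference 1.62, SE 0.934, edgeR adjusted p = 0.340), and the pseudogene Gm11539 in HoxB, whose reads could come from its parent gene, had 722 and 568 (0.24, SE 0.141, adjusted p = 0.345).

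**Figure D4:**
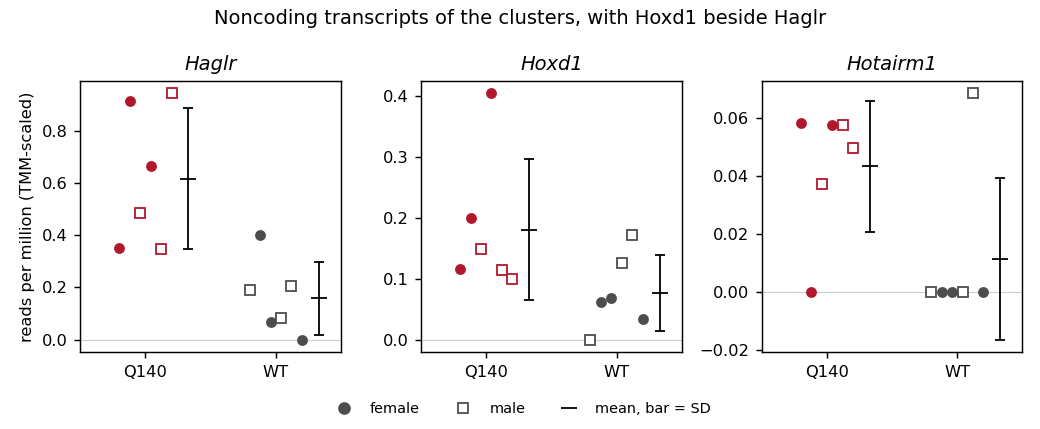
CPM (TMM-scaled) of the noncoding transcripts Haglr and Hotairm1 and of Hoxd1, the neighbour of Haglr, by animal (circles females, open squares males), with mean and SD (black), Q140 left and WT right. Haglr averages 0.616 CPM in Q140 and 0.158 CPM in WT with 1 WT animal inside the Q140 range, and the other 2 overlap.

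Most genes that flank the clusters were far more abundant. From the list of flanking genes, 2 of the 11 tested rose while 0 fell, where 3.15% of all genes tested rose and 4.47% fell. The median log2 difference was 0.03, against 0.0050 over all genes tested. At an unadjusted p below 0.05, 2 were higher and 2 lower, and DESeq2 called 2 higher and 1 lower. Skap2, an adaptor protein gene near the head-side end of HoxA, averaged 22.8 ± 1.06 CPM in Q140 and 18.2 ± 2.10 CPM in WT (SD, n = 6 each) and rose by 0.33 on the log2 scale (SE 0.0692, edgeR adjusted p = 0.00845). That call was lost within the prefixes of the animals' names, which are uneven over the genotypes (edgeR adjusted p = 0.174). The fit within prefixes, here and below, took the RFckQ and RFQ animals alone, with prefix in place of sex as the covariate. A call lost there can also come from the smaller number of animals. Hibadh, an enzyme of valine breakdown on the other side of HoxA, averaged 45.5 ± 3.26 CPM in Q140 and 39.9 ± 1.59 CPM in WT and rose by 0.19 (SE 0.0511, edgeR adjusted p = 0.0343), a call lost without any of Q140 1, 2, 3, 4 or 6 or WT 1, 2, 3 or 6 (adjusted p 0.0549 to 0.0849) and within the name prefixes (0.457). Outside the tail-side end of HoxC, the end away from Hoxc4, Hoxc5 and Hoxc6, Calcoco1 averaged 82.8 ± 4.72 CPM in Q140 and 79.0 ± 3.56 CPM in WT (log2 difference 0.07, edgeR adjusted p = 0.445). The first gene listed outside the other end of HoxC, 5730585A16Rik, had 1 read in Q140 and 0 in WT. Outside the head-side end of HoxD, Mtx2 averaged 30.4 ± 1.84 CPM in Q140 and 29.8 ± 1.00 CPM in WT (0.03, edgeR adjusted p = 0.782). Evx1 and Evx2, the homeobox genes at the tail-side ends of HoxA and HoxD, had 0 reads.

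The Pbx, Meis and Pknox genes, which encode the partners of Hox proteins, were all expressed, and of the 9 tested 1 rose and 1 fell (median log2 difference 0.06). The shares of all genes tested were 3.15% that rose and 4.47% that fell. At an unadjusted p below 0.05, 2 of the 9 were higher and 1 lower, and DESeq2 called 1 higher and 1 lower. Meis1 averaged 9.53 ± 0.639 CPM in Q140 and 7.43 ± 0.928 CPM in WT (SD, n = 6 each) and rose by 0.36 on the log2 scale (SE 0.0865, edgeR adjusted p = 0.0198), with adjusted p of 0.0503 without WT 1 or 0.0547 without Q140 2 as the values past the threshold when 1 animal was left out, and 0.413 within the name prefixes. Pknox2 averaged 82.1 ± 3.14 CPM in Q140 and 103 ± 9.70 CPM in WT and fell by 0.33 (SE 0.0562, edgeR adjusted p = 0.00249, or 0.0896 within the name prefixes).

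Among 5 tested axial regulators and relatives of the Hox clusters, 1 rose and 1 fell, and Cdx2, Cdx4 and Pdx1 had 0 reads (median log2 difference -0.02). Over all genes tested, 3.15% rose and 4.47% fell. At an unadjusted p below 0.05, and by DESeq2, 1 of the 5 was higher and 1 lower. Gsx1, a ParaHox gene of forebrain interneuron progenitors, averaged 1.17 ± 0.399 CPM in Q140 and 0.285 ± 0.125 CPM in WT and rose by 2.07 (SE 0.304, edgeR adjusted p = 0.000803), and missed the threshold within the name prefixes (adjusted p = 0.181). Egr2, which switches on Hox genes in the hindbrain and is an activity-dependent gene in the cortex, averaged 8.59 ± 3.37 CPM in Q140 and 19.6 ± 3.93 CPM in WT and fell by 1.19 (SE 0.184, edgeR adjusted p = 0.00114), and missed it too within the prefixes (adjusted p = 0.0964). The retinoic acid list had 0 calls each way among 11 tested by edgeR and by DESeq2 (median log2 difference 0.12), and 1 gene at an unadjusted p below 0.05, the receptor gene Rxra at 29.9 ± 2.20 CPM in Q140 and 27.5 ± 1.13 CPM in WT (edgeR adjusted p = 0.169).

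Of the genes that keep Hox clusters silent or open, 3 of 39 tested changed, or 7.69%, a share near the 7.62% of all genes tested. The list of PRC2, the Polycomb complex that methylates histone H3 at lysine 27, had 0 calls among 11 tested by edgeR and by DESeq2 (median log2 difference 0.06); at an unadjusted p below 0.05, 1 was higher, Phf1 at 52.0 ± 3.74 CPM in Q140 and 47.7 ± 2.80 CPM in WT (edgeR adjusted p = 0.196), and 1 was lower. Of 16 tested genes of PRC1, the complex that reads this mark, 2 rose and 0 fell (median log2 difference 0.03), where 3.15% of all genes tested rose and 4.47% fell. At an unadjusted p below 0.05, 5 of the 16 were higher and 1 lower, and DESeq2 called 2 higher and 0 lower. Cbx8 had 11.8 to 15.6 CPM in Q140 and 8.52 to 10.8 CPM in WT and rose by 0.46 (SE 0.0826, edgeR adjusted p = 0.00338, or 0.119 within the name prefixes). Of 12 trithorax and H3K27 demethylase genes, 0 rose and 1 fell (median log2 difference -0.04): Kmt2a, a methyltransferase that keeps Hox genes active, at 246 ± 23.7 CPM in Q140 and 286 ± 26.0 CPM in WT (log2 -0.22, SE 0.0636, edgeR adjusted p = 0.0498). That call was lost without any of Q140 2, 3, 4 or 6 or WT 1, 2, 3, 5 or 6 (adjusted p 0.0553 to 0.117), and within the name prefixes (0.363). Of these 12 genes, 1 was higher and 3 were lower at an unadjusted p below 0.05, and DESeq2 called 0 higher and 1 lower.

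Markers of brainstem and spinal cord neurons were present at low levels in both genotypes. Their sum was above that of the Hox genes in each animal, but not all of them are limited to cells in which Hox genes are on. The 14 markers of brainstem and spinal cord neurons summed to 6.35 to 13.6 CPM in Q140 and 3.97 to 12.9 CPM in WT. The largest part of that on average was Slc5a7, the choline transporter of cholinergic neurons, which also lie in the basal forebrain. It stood at 6.06 ± 2.58 CPM in Q140 and 4.00 ± 2.99 CPM in WT (SD, n = 6 each). Dbh, the enzyme that makes noradrenaline, had 1.79 ± 0.321 CPM in Q140 and 2.24 ± 0.156 CPM in WT. Mnx1, of spinal motor neurons, had 0 reads, and 12 of the 14 had a read. By reads in Q140 and WT, Lbx1 had 12 and 3, Slc6a4 15 and 5, Tlx3 5 and 0 and Phox2a 5 and 2. Tph2 had 175 and 147, Prph 68 and 54, Slc18a2 63 and 58, Fev 47 and 45 and Slc6a2 3 and 2. In CPM, Fev, Slc18a2 and Dbh averaged lower in Q140, and the other markers with a read averaged higher. Of the 9 tested, 0 passed by edgeR or DESeq2 (median log2 difference 0.18), and 1 higher and 1 lower had an unadjusted p below 0.05. Slc6a5, the transporter of glycine neurons, which also belong to brainstem and spinal cord, had 33 reads in Q140 and 13 in WT, without overlap between 0.143 to 0.230 CPM in Q140 and 0.0307 to 0.134 CPM in WT (log2 difference 1.17, SE 0.419, edgeR adjusted p = 0.108). The part of such cells in the Hox result was not tested.

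Among the other cell type lists, the 11 markers of blood and immune cells summed to 108 to 119 CPM in Q140 and 97.7 to 122 CPM in WT, with 0 of 11 passing by edgeR, 0 higher and 1 lower at an unadjusted p below 0.05, and Kit at the smallest p (edgeR adjusted p = 0.0654; DESeq2 called 1 lower). Meningeal fibroblast markers summed to 167 to 426 CPM in Q140 and 36.6 to 408 CPM in WT, with 0 of 10 passing by edgeR or DESeq2 and 1 higher at an unadjusted p below 0.05, Foxc1 (edgeR adjusted p = 0.202). Endothelial and mural markers summed to 355 to 416 CPM in Q140 and 293 to 434 CPM in WT, with 0 of 8 passing by edgeR or DESeq2 and 2 higher at an unadjusted p below 0.05, with Cldn5 first (edgeR adjusted p = 0.155). The median log2 differences of the 3 lists were 0.14, 0.49 and 0.16. Markers of the telencephalic cortex, which name the dissected tissue, were all present. They summed to 1579 to 1963 CPM in Q140 and 2034 to 2357 CPM in WT without overlap, and most of each sum was Slc17a7. Of the 7, 0 rose and 1 fell by edgeR (median log2 difference -0.18), where 3.15% of all genes tested rose and 4.47% fell. At an unadjusted p below 0.05, and by DESeq2, 0 were higher and 3 lower. The 1 that fell was Slc17a7, the glutamate transporter of excitatory neurons, at 1439 ± 126 CPM in Q140 and 1819 ± 102 CPM in WT (log2 -0.34, SE 0.0599, edgeR adjusted p = 0.00302, or 0.155 within the name prefixes). Whether these levels take part in the Hox result was not tested.

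Both sexes showed the difference in Hoxc4 and Hoxc6. In females Hoxc4 had 62 reads in Q140 and 0 in WT and Hoxc6 67 and 5; in males Hoxc4 had 44 reads in Q140 and 1 in WT and Hoxc6 65 and 4. Both genes passed in each sex, Hoxc4 with an edgeR adjusted p of 0.00112 in females and 0.00758 in males and Hoxc6 with 0.0123 and 0.0224. Of all 23755 genes tested, 1111 passed in females and 243 in males, in either direction. Hoxb9 (edgeR adjusted p = 0.111 in females and 0.278 in males) and Hoxc5 (0.121 and 0.272) passed in neither sex. The test of whether the Q140 effect differed with sex passed for 0 of the 7 tested Hox genes and for 0 of all genes tested (edgeR; 0 of the 7 and 8.06% of all genes at an unadjusted p below 0.05), the smallest Hox p being that of Hoxd1 at 0.141. Hoxd1 had 25 reads in Q140 and 5 in WT in females, and 10 and 8 in males. Males against females, 0 of the 7 passed or had an unadjusted p below 0.05, where 0.497% of all genes passed.

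The animals' names carry prefixes whose meaning the labels do not state and which are spread unevenly over the genotypes, so values were also taken within them. Among the RFckQ animals Hoxc4 stood at 0.606 CPM in the 1 Q140 animal and 0 to 0.0343 CPM in the 4 WT animals, and Hoxc6 at 0.519 CPM and 0 to 0.153 CPM. Among the RFQ animals Hoxc4 stood at 0.372 to 0.744 CPM in the 3 Q140 animals and 0 in the 1 WT animal, and Hoxc6 at 0.521 to 0.992 CPM and 0. The 1 FMQ animal was WT, with 0 reads of both, and the 2 animals without a prefix were Q140. The fit within the prefixes took the RFckQ and RFQ animals alone, with prefix in place of sex as the covariate, and all RFQ animals were male. In it Hoxc4 passed with an edgeR adjusted p of 0.00326 and Hoxc6 with 0.0426, while Hoxc5 (0.222), Hoxb9 (0.158) and Haglr (0.157) did not. It had fewer animals than the main fit, so a call lost in it cannot be laid to the prefixes. Names with the number 150 or 161 occur in both genotypes. Under number 150 Hoxc4 had 21 reads in the 1 Q140 animal and 0 in the 1 WT animal and Hoxc6 18 and 0, and under number 161 Hoxc4 had 29 reads in the 2 Q140 animals and 0 in the 1 WT animal and Hoxc6 45 and 0. Fitted on these 5 animals alone, both genes missed the threshold with an edgeR adjusted p of 0.292, in a fit in which 1 gene of all passed.

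**Figure D5:**
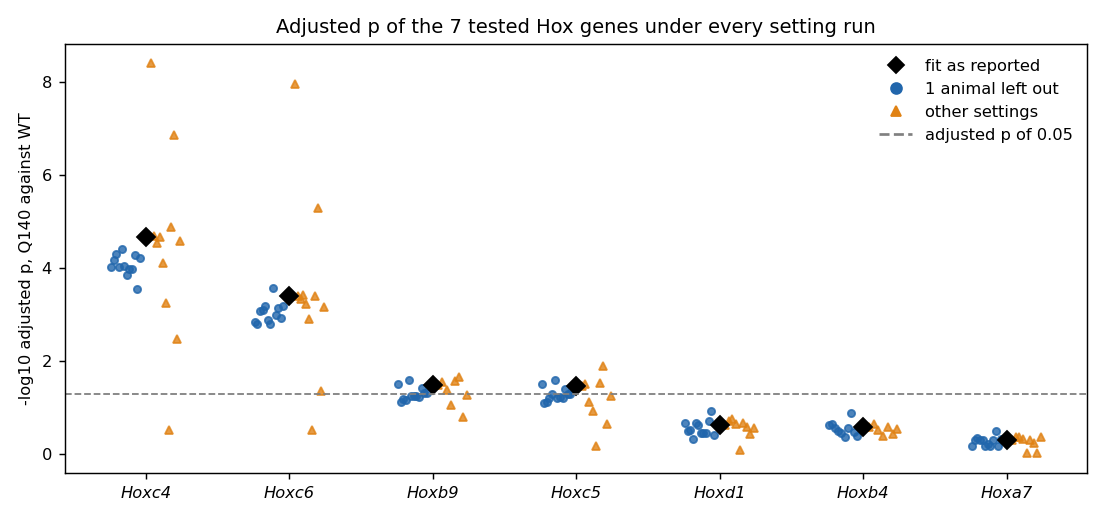
Adjusted p (vertical axis, -log10) of each tested Hox gene, Q140 against WT, in the fit reported (black diamond), with 1 animal left out (blue circles) and under the other settings (orange triangles); the dashed line is an adjusted p of 0.05. Hoxc4 and Hoxc6 lie above the line in 22 of 23 alternatives, Hoxb9 in 10 of 20 and Hoxc5 in 9 of 21, and Hoxd1, Hoxb4 and Hoxa7 in 0.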

How the data were processed

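RNA-seq was made from 12 piriform cortices with a Qiagen RNeasy kit and the stranded Illumina TruSeq preparation, per the labels' protocols. The authors deposited a table of raw counts per gene, whole numbers without normalization, and a table of FPKM per gene, which scales counts by gene length and library total. STAR 2.7.5c, SAMtools 1.10 and HTSeq 0.12.3 and the builds GRCm38 and mm10 are named in the submitters' processing notes. Which strand setting HTSeq was run with, and on which annotation release, is not given in the sources used here.

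The Hox genes, the other gene lists and the tests were chosen with earlier results of these data known. The quasi-likelihood test of edgeR 4.0.16 (R 4.3.3), with TMM and sex as a covariate, was run over the genes with at least 10 reads in all 12 animals together, two-sided, with Benjamini-Hochberg adjustment over all of them and a threshold of 0.05. This low filter keeps sparse genes; edgeR's default filter was an alternative, as were DESeq2 1.42.0, limma 3.58.1 on log2 FPKM, other scalings, other covariates and leaving out each animal. Since libraries are from separate animals, p-values reflect animal-to-animal spread. Reads were also pooled per genotype, with exact binomial (Clopper-Pearson) intervals at 95% for ratios, which cover counting error only. Genes of the other lists were named if they passed, up to 4 a list, or else by the smallest p. Calcoco1, 5730585A16Rik and Mtx2 were named as first genes outside an end of HoxC or HoxD. The genes of these lists at 0 reads, Barx1, Gm21839 and all brainstem and spinal cord markers except Slc6a5 were named outside these rules, after their values were seen. Gene positions and overlaps came from GENCODE on GRCm38, which matched 48349 of the 48795 identifiers; promoters came from RefSeq (GRCm38.p6), where 22 of 39 Hox symbols matched. No proteins were used. Values of some genes in the counts are not reported here by name.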

Additional observations from a re-analysis of the deposited data

Results flagged for a closer look

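Of 19 groups of 6 animals examined over the tested Hox genes, Haglr and the cluster sums, 1 held an animal that stood apart, where chance alone gives about 1 in 20. Q140 4, a female, had 14 reads of Hoxd1, or 0.404 CPM, and the next Q140 animal had 0.200 CPM. That gap was 0.670 of the range of the group, past the limit that Dixon's test sets at 95% for 6 values. The same animal was inside the range of the other Q140 animals for Hoxc4, at 0.606 CPM, and the lowest of them for Hoxc6, at 0.519 CPM where the next had 0.521 CPM. Why it stood apart was not tested.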

How the results depend on the processing

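The count of Hox genes that rose, 4, was 2 with DESeq2, 2 with edgeR's default filter, 2 with limma on log2(FPKM + 1), 2 with plate column as a further covariate, 2 within the name prefixes and 0 within the name numbers, and 2 to 4 when 1 animal was left out; it was 2 without any of Q140 2, 3 or 4 or WT 1, 2 or 3. None fell under any alternative, with 23 run. The default filter and DESeq2 gave the sparse genes no adjusted p; the other causes were not tested. Over all genes, 748 rose and 1062 fell, against 1365 and 755 with library size alone, 1252 and 613 with limma on log2(FPKM + 0.1), 1240 and 633 with log2(FPKM + 1), 53 and 118 within prefixes and 1 and 0 within numbers. Leaving out 1 animal gave 375 to 1019 that rose and 645 to 1274 that fell. The median log2 difference of all genes was 0.0050, and 0.05 with library size alone. Hoxa7, which did not pass, turned to -0.65 within the numbers. Pooled CPM moved by less than the spread between animals under every alternative run, for all Hox genes from 1.82 to 1.98 in Q140 and from 0.247 to 0.311 in WT with 1 animal left out. No paired analysis was possible over all 12 animals because only the name numbers 150 and 161 occur in both genotypes, and their 5 animals gave the fit within numbers. At these depths a Hox gene with 0 reads in a genotype could still be at up to 0.0161 pooled CPM in Q140 or 0.0175 in WT (3 counts). That limit covers counting error only, and not reads on exons shared with another gene, as in Hoxd3 and Hoxd4.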
